A study of Mus musculus with 31 samples.

Results

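The AP-1 and immediate early genes were 10 mouse genes chosen by name, Fos, Fosb, Fosl1, Fosl2, Jun, Junb, Jund, Egr1, Atf3 and Ier2, out of 38283 genes listed in each of the deposited tables. All 10 were found. RNA was sequenced from pancreatic cells of C57BL/6 mice at postnatal day 2 that had been dissociated with trypsin-EDTA and sorted by YFP fluorescence into mesenchymal (YFP+) and non-mesenchymal (YFP-) cells. Every group carried the Nkx3.2-Cre driver, which acts in the pancreatic mesenchyme, so the controls carried Cre too. In the Igf2 model, non-mesenchymal cells came from Igf2+/+; Nkx3.2Cre/+ controls (4 libraries) and Igf2+/fl; Nkx3.2Cre/+ mutants (3 libraries). In the H19DMD model, in which the deleted element is the imprinting control region upstream of H19, both fractions came from H19DMD+/+; Nkx3.2+/Cre controls (3 libraries each) and H19DMDfl/+; Nkx3.2+/Cre mutants (4 libraries each). These 6 groups made up 21 libraries, and the other 10 of the 31 samples were not analysed here. The labels do not say whether libraries came from separate animals or from pools, nor whether the fractions share animals, so p-values measure the spread between these libraries.

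AP-1 is a dimer of basic leucine zipper proteins, in which a Fos protein pairs with a Jun protein and binds DNA at a short palindromic site. Most of these genes are immediate early genes: their transcription starts within minutes of serum, growth factor or stress signals, through MAP kinases and the factors SRF and CREB, without new protein synthesis, and the transcripts are short-lived. They are also known to be switched on while tissue is digested and sorted. No undissociated pancreas is among the libraries, so induction by dissociation and expression in the intact tissue cannot be told apart.

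Values are FPKM, fragment counts scaled to transcript length and to library size, which allow levels to be compared between genes. The depth of the libraries is unknown, since low values showed no common step: at most 12 low genes of a library shared a single ratio to the first library of its table. Libraries held 17476 to 20918 genes above 0, and the 3 features with the highest FPKM took 38.2 to 82.5% of a library's total. The sort matched its labels: summed FPKM of 13 mesenchymal markers was 5843 to 7497 in mesenchymal and 165 to 467 in non-mesenchymal libraries. The targeted locus matched them too, since Igf2 was 3648 to 4024 FPKM in H19DMD control and 6162 to 7923 in H19DMD mutant mesenchymal libraries, and H19 was 2437 to 2454 against 565 to 835. In the Igf2 model the driver acts outside the non-mesenchymal fraction, so the level of Igf2 there (71.5 to 144 FPKM in controls, 25.0 to 147 in mutants) does not check those labels. Each model has its own table of values, in which the library names carry a prefix of their own, so a difference between models and a difference between these sets of libraries cannot be told apart. Differences between groups were tested only within a table, and levels set side by side across the tables are descriptions.

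Most of the genes were among the abundant transcripts of every library, and Jund and Fosl1 were lower. Egr1, a zinc finger transcription factor, lay at the 99.8th to 99.9th percentile of protein-coding genes in all 21 libraries, with 812 to 1601 FPKM. Fosb and Fos followed at the 99.2nd to 99.8th and the 99.0th to 99.7th percentile, and Jun at the 98.5th to 99.5th. Atf3, a stress-induced member of the ATF family that can dimerise with Jun proteins, lay at the 95.5th to 99.6th percentile, and Ier2, a small nuclear immediate early protein, at the 88.1st to 99.4th. Fosl2 and Junb lay at the 89.6th to 97.5th and the 86.9th to 98.3rd percentile. Jund, the Jun gene that is known for steady expression in resting cells, lay at the 63.0th to 88.3rd percentile, and Fosl1, a Fos gene usually induced later, at the 16.3rd to 57.6th.

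**Figure D1:**
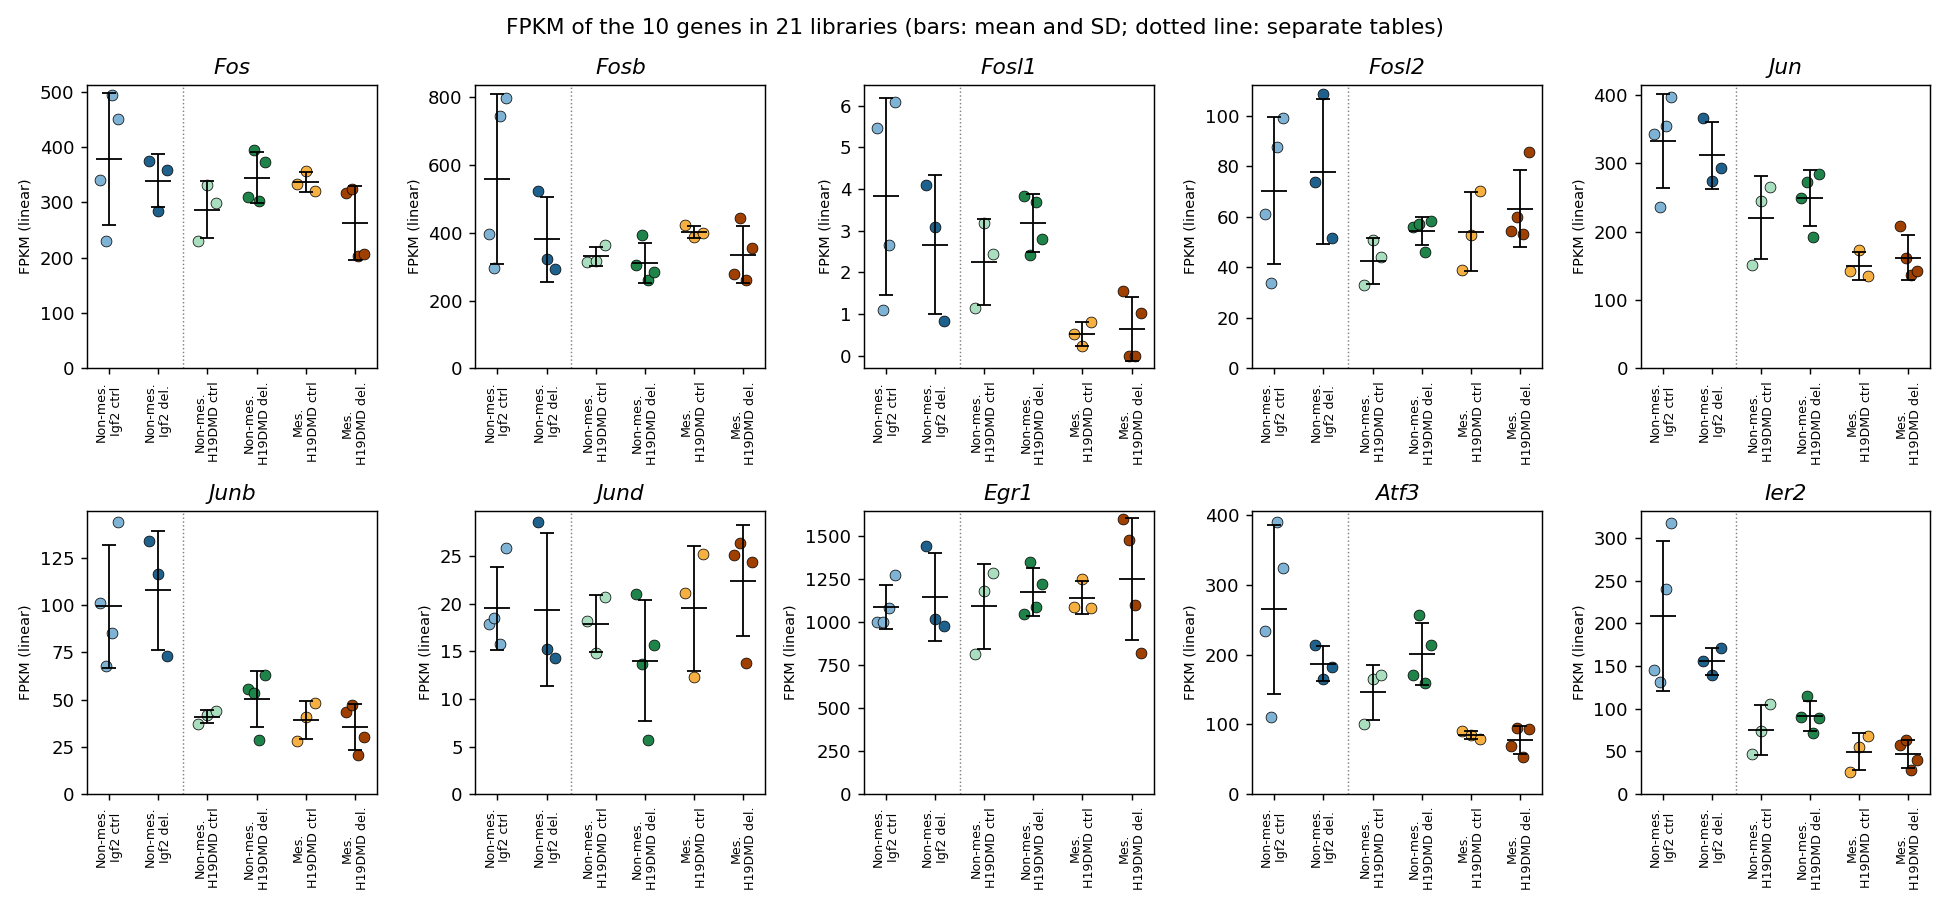
FPKM (linear axis) of each gene in each of the 21 libraries, by group. Points are libraries, the horizontal mark and bar are the group mean and SD, and the dotted line separates the 2 tables, which were deposited apart. Atf3 lies at 53.6 to 94.2 FPKM in the 7 mesenchymal libraries, below all non-mesenchymal libraries of its table, while Egr1 overlaps in all groups.

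In the Fos family, Fos was 340, 229, 494 and 450 FPKM in the Igf2 controls and 375, 285 and 358 in the Igf2 mutants. In the H19DMD model it was 230, 332 and 298 in non-mesenchymal controls, 309, 394, 303 and 373 in non-mesenchymal mutants, 332, 357 and 321 in mesenchymal controls and 317, 324, 203 and 206 in mesenchymal mutants. The order of group means ran from 378 ± 119 FPKM (SD, n = 4) in the Igf2 controls to 262 ± 67.1 (SD, n = 4) in the mesenchymal mutants, and each neighbour in that order overlapped the next. Fosb, whose product also pairs with Jun proteins, was 397, 296, 745 and 797 FPKM in the Igf2 controls and 525, 323 and 294 in the Igf2 mutants. Controls 3 and 4 were the high libraries, and controls 1 and 2 overlapped the mutants. In the H19DMD model Fosb was 313, 316 and 364 in non-mesenchymal controls, 304, 394, 260 and 284 in non-mesenchymal mutants, 422, 387 and 400 in mesenchymal controls and 279, 444, 262 and 356 in mesenchymal mutants.

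Fosl2 was 32.9 to 108 FPKM over all libraries, with all 6 group ranges overlapping their neighbours. Fosl1 was 5.46, 1.09, 2.65 and 6.09 FPKM in the Igf2 controls, 4.09, 3.09 and 0.833 in the Igf2 mutants, 1.14, 3.18 and 2.45 in non-mesenchymal H19DMD controls and 3.83, 2.41, 3.69 and 2.80 in non-mesenchymal H19DMD mutants. In mesenchymal cells it was 0.530, 0.237 and 0.823 in controls and 1.55 and 1.03 in mutants 1 and 4, and mutants 2 and 3 were listed at 0. Fosl1 overlaps Ccdc85b on the opposite strand, and the use of strand in the authors' counting is not given in the sources used here, so reads of the pair may not be told apart.

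In the Jun family, Jun was 342, 236, 355 and 397 FPKM in the Igf2 controls and 367, 275 and 293 in the Igf2 mutants. It was 152, 246 and 265 in non-mesenchymal H19DMD controls, 249, 273, 192 and 285 in non-mesenchymal mutants, 142, 173 and 136 in mesenchymal controls and 209, 162, 136 and 142 in mesenchymal mutants. The mesenchymal libraries were at the low end, but control 1 of the non-mesenchymal cells, at 152, lay among them. Junb was 67.9 to 144 FPKM in the 7 libraries of the Igf2 model and 20.8 to 62.9 in the 14 of the H19DMD model. Jund was 5.72 to 28.6 FPKM over all libraries, with overlapping neighbours throughout. Jun and Jund overlap Junos and Gm11175 on the opposite strand, with the same limit as for Fosl1. The locus that the deposited table gives for Jun, chr4:95049034-95167318, is wider than the GENCODE gene, chr4:95049034-95052222. The length behind its FPKM may therefore differ from that of the gene.

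Atf3 was 234, 111, 389 and 324 FPKM in the Igf2 controls and 214, 166 and 182 in the Igf2 mutants. In the H19DMD model it was 101, 165 and 171 in non-mesenchymal controls and 170, 257, 160 and 214 in non-mesenchymal mutants, against 91.2, 85.1 and 79.5 in mesenchymal controls and 69.6, 94.2, 53.6 and 93.6 in mesenchymal mutants. The fractions did not overlap. Ier2 was 145, 131, 241 and 317 FPKM in the Igf2 controls and 156, 140 and 171 in the Igf2 mutants. It was 47.2, 73.4 and 106 in non-mesenchymal H19DMD controls, 90.7, 115, 71.6 and 89.7 in non-mesenchymal mutants, 26.3, 55.3 and 67.8 in mesenchymal controls and 57.0, 63.4, 28.1 and 40.4 in mesenchymal mutants. Among mutants the fractions were apart, and among controls they overlapped. Egr1 was 1001, 997, 1081 and 1270 FPKM in the Igf2 controls and 1439, 1020 and 979 in the Igf2 mutants, and its 14 values in the H19DMD model were 812 to 1601, with every group overlapping the next.

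In 5 of the 6 groups a single library was the lowest or the highest for 8 or 9 of the genes. In the Igf2 controls, library 2 was the lowest for 9 of the 10 genes and library 4 the highest for 8. Among the Igf2 mutants library 1 was the highest for 8. In the H19DMD model, non-mesenchymal control 1 was the lowest for 9, non-mesenchymal mutant 3 for 8 and mesenchymal mutant 3 for 8. The mesenchymal controls were mixed, with library 3 the highest for 5 genes and the lowest for 4. Non-mesenchymal control 1 and mesenchymal mutant 3 also had the lowest median-ratio scaling factors of their table, 0.876 and 0.915. After scaling by these factors they were the lowest for 7 and for 4 genes, and Igf2 control 2 was still the lowest for 9.

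**Figure D2:**
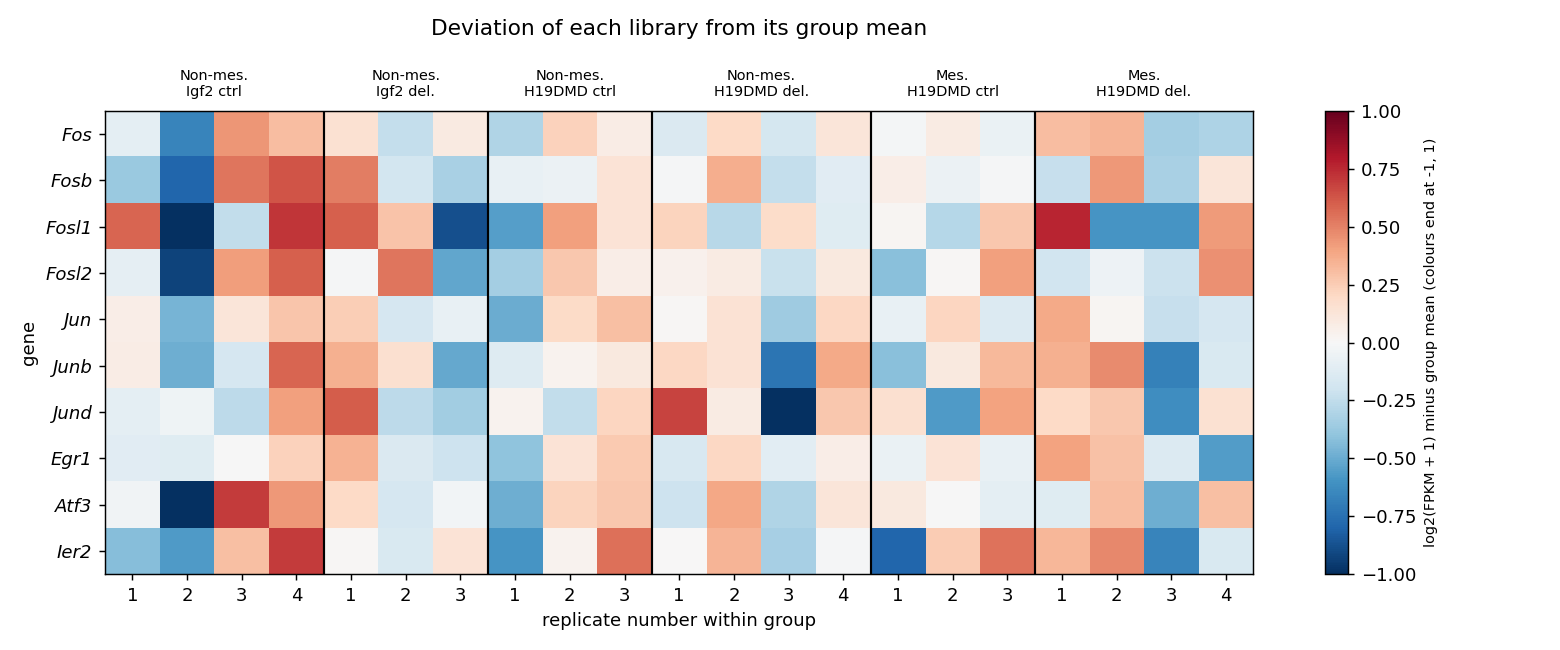
Log2(FPKM + 1) of each gene (rows) in each library (columns, by replicate number within group) minus the mean of its group, with red above and blue below. Igf2 control 2 is below its group mean for all 10 genes and Igf2 control 4 above it for all 10.

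Across the 21 libraries, with the group means subtracted, Fos was correlated with 5 of the other 9 genes after Benjamini-Hochberg adjustment over these 9 relations. The share of all genes correlated with Fos is not given here, so this count has no background. With Jun, Pearson's r was 0.81 (permutation p = 0.00011, adjusted p = 0.00099) and Spearman's rho was 0.76 (adjusted p = 0.00693, permutation). With Atf3, r was 0.82 (adjusted p = 0.00751, permutation) and rho 0.75 (adjusted p = 0.0154). The other called relations were with Ier2 (r = 0.71, rho = 0.72), Egr1 (r = 0.71, rho = 0.76), each at adjusted p = 0.00751 for r by permutation, and Fosb (r = 0.70, rho = 0.59), at adjusted p = 0.0331 for r and 0.0759 for rho by permutation. Junb (r = 0.55, adjusted p = 0.0504 by permutation), Fosl2 (r = 0.42), Fosl1 (r = 0.31) and Jund (r = 0.21) did not pass.

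The relations of the called genes kept their sign within each table. Within the Igf2 table (7 libraries) and the H19DMD table (14 libraries), r with Fos was 0.88 and 0.79 for Jun, 0.98 and 0.61 for Atf3, 0.84 and 0.65 for Ier2, 0.49 and 0.90 for Egr1, and 0.88 and 0.41 for Fosb. Without the 2 libraries farthest from the median of Fos, which were Igf2 control 2 and mesenchymal mutant 3, r was 0.74 for Jun, 0.69 for Atf3, 0.63 for Ier2, 0.79 for Egr1 and 0.54 for Fosb. Over all 45 pairs of the 10 genes, every r was above 0, from 0.10 to 0.84 with a median of 0.54. These values share each library's normalisation and depth. After median-ratio scaling of the libraries, r with Fos was 0.78 for Jun, 0.78 for Atf3, 0.64 for Ier2 and 0.66 for Egr1, which passed, and 0.68 for Fosb, which did not (adjusted p = 0.0573, permutation).

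**Figure D3:**
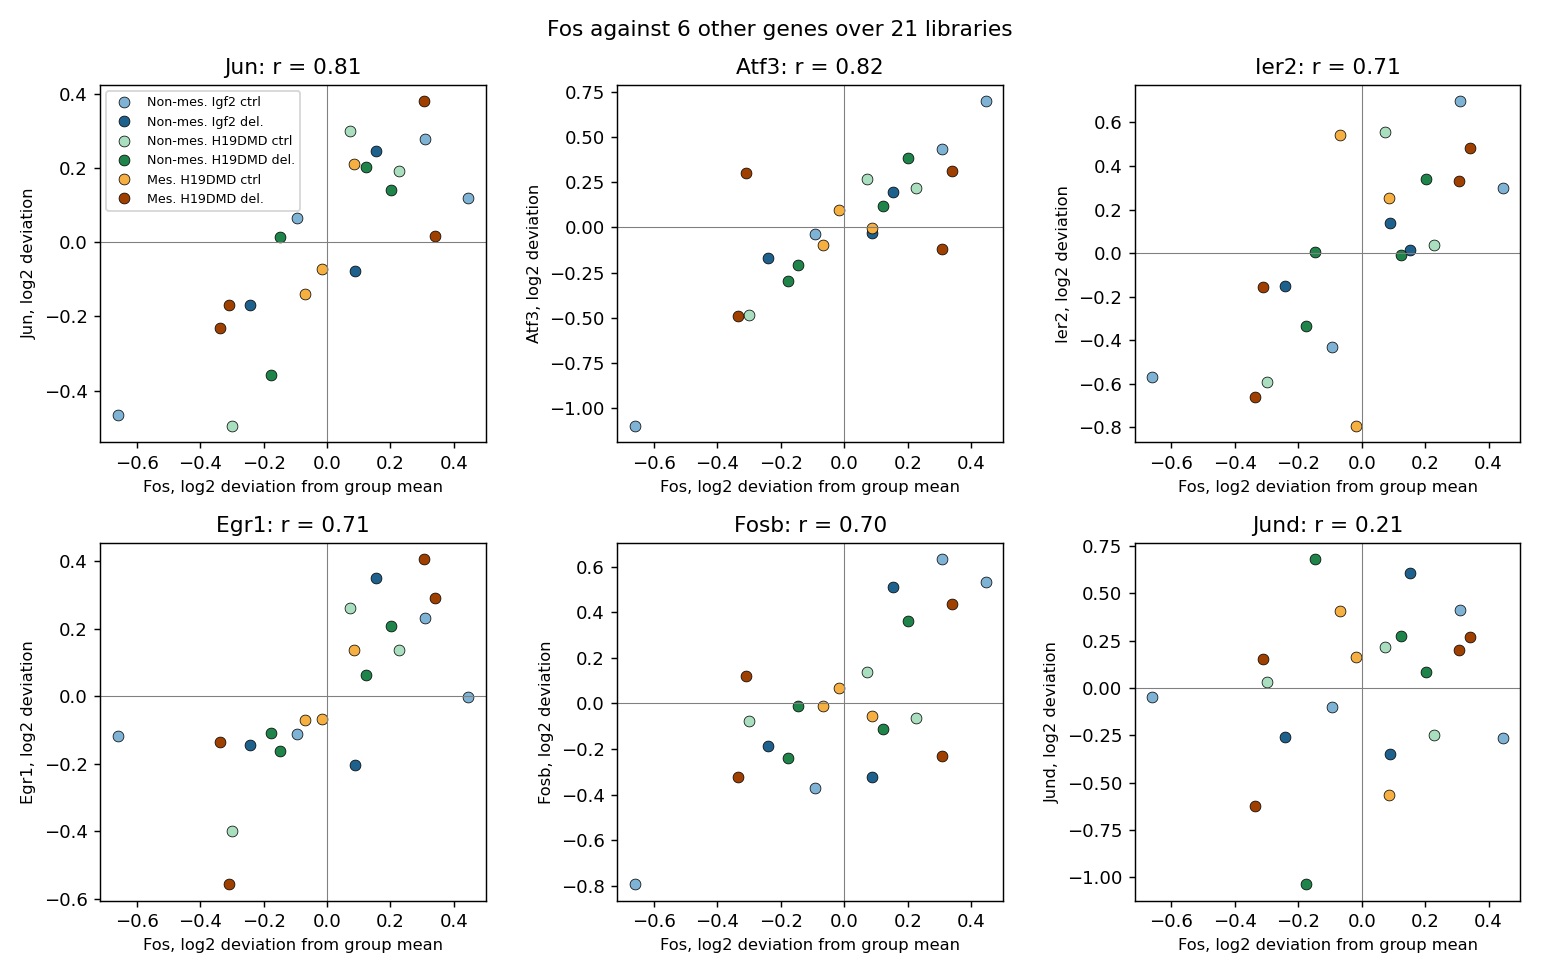
Log2(FPKM + 1) minus the group mean for Fos (x) and for each of 6 other genes (y), 1 point per library, coloured by group. Pearson's r stands above each panel. The points rise together for Jun (r = 0.81) and Atf3 (r = 0.82) and scatter for Jund (r = 0.21).

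The stretches just upstream of the start are shown for Fos, for Fosb, Jun and Atf3, which were correlated with it, and for Junb, which was not called, from RefSeq on GRCm38.p6. Each is the 150 bases before the annotated start, 5′ to 3′ on the gene's strand, and capitals mark TGACG or its reverse complement, the core of the CREB and ATF site. They lie at chr12:85473740-85473889 (plus strand) for Fos, chr7:19310046-19310195 (minus) for Fosb, chr4:95052223-95052372 (minus) for Jun, chr8:84978749-84978898 (minus) for Junb and chr1:191183334-191183483 (minus) for Atf3.
Fos: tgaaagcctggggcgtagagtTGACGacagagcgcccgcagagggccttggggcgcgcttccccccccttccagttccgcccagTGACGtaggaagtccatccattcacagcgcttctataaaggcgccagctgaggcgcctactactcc
Fosb: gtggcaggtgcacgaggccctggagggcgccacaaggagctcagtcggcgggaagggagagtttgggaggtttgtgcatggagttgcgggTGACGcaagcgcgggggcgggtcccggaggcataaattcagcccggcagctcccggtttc
Jun: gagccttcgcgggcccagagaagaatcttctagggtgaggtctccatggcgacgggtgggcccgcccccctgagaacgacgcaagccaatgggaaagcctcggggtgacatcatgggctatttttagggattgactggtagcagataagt
Junb: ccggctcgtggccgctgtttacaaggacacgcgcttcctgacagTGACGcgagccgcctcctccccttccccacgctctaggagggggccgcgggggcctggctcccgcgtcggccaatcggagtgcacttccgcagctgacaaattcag
Atf3: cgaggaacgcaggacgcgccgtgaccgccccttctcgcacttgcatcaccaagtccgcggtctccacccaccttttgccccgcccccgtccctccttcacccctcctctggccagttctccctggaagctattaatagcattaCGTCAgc
The 250 bases upstream were searched on both strands for 7 genes. TGACG was found in 4 of the 7 genes searched (Fos, Fosb, Junb and Atf3), against 17.8% of 32851 promoters of the same length. The Jun stretch holds none, and sites that depart from these letters, AP-1 sites among them, were not searched. In Fos it began 129 and 66 bases before the start, in Fosb 60, in Junb 106 and in Atf3 7. The Fos stretch also held the TATA box TATAAA 33 bases before the start, found in 1 of the 7 and in 12.4% of all. The GC box GGGCGG was found in 5 of the 7 and in 32.7% of all. The EGR site GCGGGGGCG was found in Fosb and Fosl2 and in 2.57% of all, and in both it overlapped a GC box. The CArG box, the site of SRF, was in none of the 7 windows and in 1.47% of all. Sequence beyond 250 bases and the promoters of Egr1, Fosl1 and Ier2 were not searched, so this does not show that SRF sites are absent. Fosl2 and Jund were searched as well, and these matches are descriptions of letters, not of bound sites.

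Deletion of Igf2 in the mesenchyme did not move any of the 10 genes past the threshold in non-mesenchymal cells. With limma on log2(FPKM + 1) and Benjamini-Hochberg adjustment over all 17441 genes tested, 0 of 10 were called, against 0.0631% of all genes. An unadjusted p under 0.05 was found for 0 of 10, against 5.28% of all genes. The groups overlapped for all 10 genes, where 6.02% of all genes did not overlap. Log2 differences, mutant minus control, ran from -0.48 for Fosb (95% interval -1.44 to 0.48, adjusted p = 0.919) to 0.19 for Fosl2 (-0.79 to 1.17). For Fos the difference was -0.11 (-0.78 to 0.57), for Jun -0.08 (-0.59 to 0.43), and for Egr1 0.06 (-0.40 to 0.52). Fosl1 was -0.36, Junb 0.13, Jund -0.05, Atf3 -0.36 and Ier2 -0.33. The intervals of Fosb, Fosl1, Fosl2, Atf3 and Ier2 reached beyond a 2-fold change in 1 or both directions. The smallest exact permutation p over the 35 relabellings was 0.343, for Fosb, where 0.0286 was the smallest possible. Summed acinar markers were 31051.5 to 45293.5 FPKM in these controls and 90667 to 104403 in the mutants, and summed leukocyte markers 735 to 1050 and 1056 to 1548. Ductal markers were 1633 to 1967 in controls and 1286 to 1556 in mutants, and housekeeping genes 2925 to 3535 and 3668 to 4765. The groups did not overlap for these 4 lists, and their part in the values of the 10 genes was not tested. In bulk RNA, fewer cells of a type and less RNA per cell cannot be told apart.

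Deletion of H19DMD did not move the genes past the threshold in non-mesenchymal cells either. By limma 0 of 10 were called, against 0.0677% of 16239 genes tested. An unadjusted p under 0.05 was found for 0 of 10, against 5.35% of all genes. All 10 overlapped between groups, where 5.68% of all genes did not. The differences were above 0 for 8 of 10 genes, with a median of 0.25 against 0.05 over all genes tested. The highest was 0.47 for Atf3 (95% interval -0.14 to 1.08, adjusted p = 0.894), and Fos was 0.27 (-0.17 to 0.71). Jund was lowest at -0.44 (-1.37 to 0.49), and Fosb was -0.10. Fosl1 was 0.40, Jun 0.20, Junb 0.23, Egr1 0.13 and Ier2 0.33. The smallest exact permutation p was 0.0857, for Fosl2, at a difference of 0.36 (-0.08 to 0.80). Summed erythroid markers were 123 to 442 FPKM in these controls and 154 to 1717 in the mutants, and summed endocrine markers 19704 to 29834 and 11076 to 20356. Ductal markers were above 0 for 10 of 10, summing to 1138 to 1811 FPKM in controls and 1346 to 2335 in mutants, and the part of these lists was not tested.

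In mesenchymal cells, where Cre acts, deletion of H19DMD moved none of the 9 genes that could be tested past the threshold. Fosl1 averaged under 1 FPKM, the minimum for testing. By limma 0 of 9 were called, against 0.0694% of 15856 genes. An unadjusted p under 0.05 was found for 0 of 9, against 4.76% of all genes. The groups overlapped for all 9, where 5.39% of all genes did not overlap. Fos was 337 ± 18.5 FPKM (SD, n = 3) in controls and 262 ± 67.1 (SD, n = 4) in mutants, a log2 difference of -0.39 (95% interval -0.93 to 0.15, adjusted p = 0.927). Mutants 3 and 4, at 203 and 206, were the low libraries, mutant 2 lay within the range of the controls, and mutant 1, at 317, just below it. Egr1 was 0.09 (-0.54 to 0.72), Jun 0.10 (-0.37 to 0.57), Atf3 -0.17 (-0.71 to 0.38) and Ier2 -0.04 (-0.99 to 0.92). Fosb was -0.30, Fosl2 0.24, Junb -0.17 and Jund 0.20. The smallest exact permutation p was 0.200, for Fos. Mitochondrial transcripts summed to 13346 to 30760 FPKM in these controls and 25445 to 45326 in the mutants, and their part was not tested. The H19DMD comparisons use the same control libraries as the comparisons of fractions that follow.

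**Figure D4:**
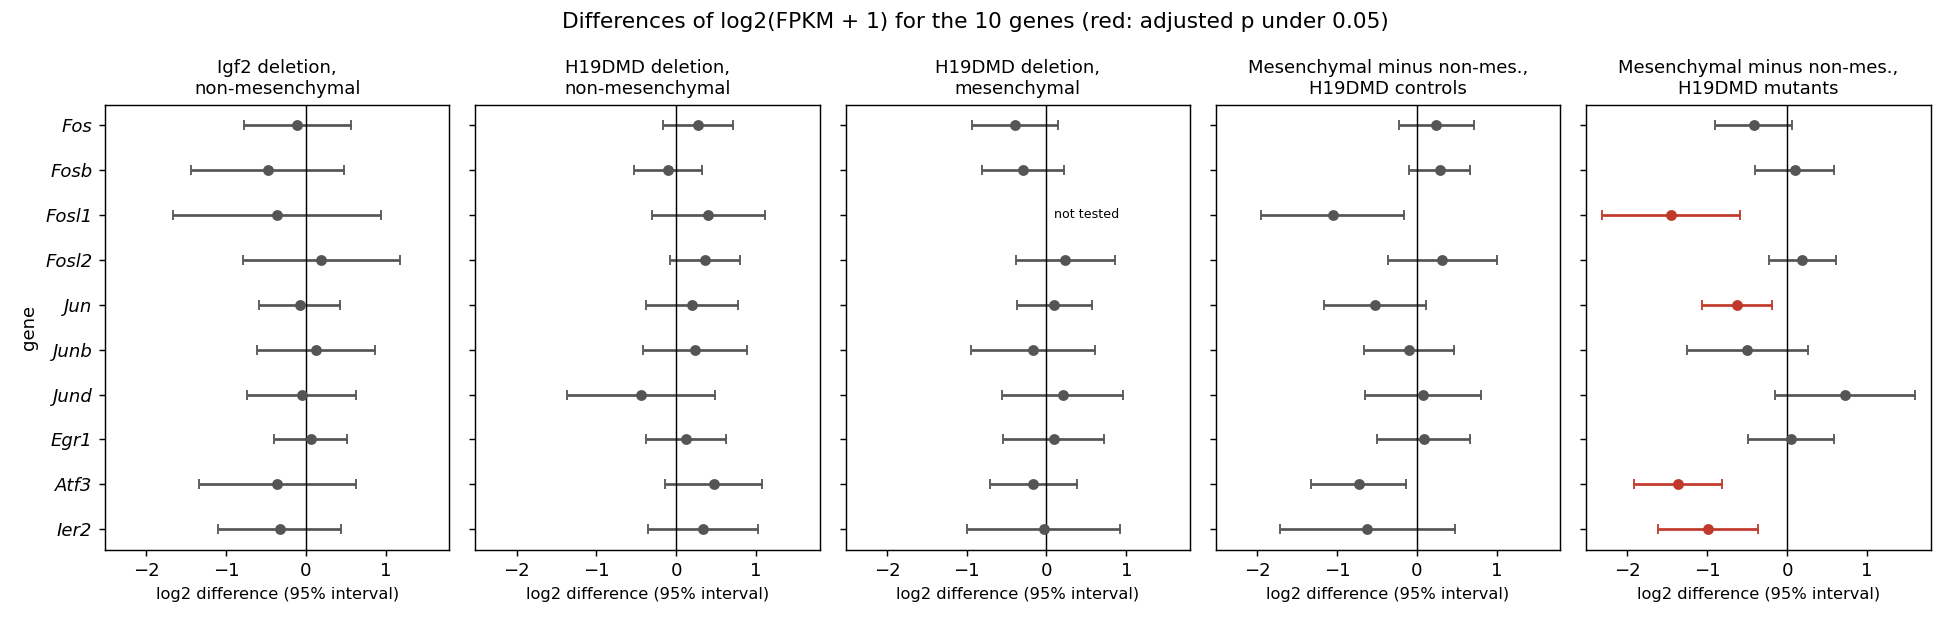
Log2 differences of log2(FPKM + 1) with 95% intervals (x) for each gene (y) in the 5 comparisons of groups. Red points have an adjusted p under 0.05, which 4 genes had in the comparison of mesenchymal with non-mesenchymal H19DMD mutants and none had in the others.

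Between the sorted fractions, Atf3, Ier2, Jun and Fosl1 were called lower in mesenchymal cells in H19DMD mutants, and no gene was called in H19DMD controls. In mutants this was 4 of 10 by limma, against 28.6% of 16767 genes called in all, 15.1% lower and 13.5% higher. Fosl1 reached the minimum of 1 FPKM only through the non-mesenchymal libraries, where it is high, so its call is a description. With a minimum mean of 5 FPKM, at which Fosl1 could not be tested, 3 genes were called. Atf3 was 77.7 ± 19.8 FPKM (SD, n = 4) in mesenchymal and 200 ± 44.6 (SD, n = 4) in non-mesenchymal mutants, a log2 difference of -1.37 (SE 0.24, adjusted p = 0.00326). Ier2 was 47.2 ± 15.99 and 91.6 ± 17.7, a difference of -0.99 (SE 0.27, adjusted p = 0.0281). Fosl1 was 0.646 ± 0.776 and 3.18 ± 0.688, a difference of -1.46 (SE 0.38, adjusted p = 0.0212). In these 3 of 10 genes every mesenchymal library was below every non-mesenchymal one, where 31.0% of all genes did not overlap in 1 direction or the other. The exact permutation p was 0.0286 for each, the smallest that 70 relabellings allow.

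Jun was 162 ± 32.8 FPKM in mesenchymal and 250 ± 40.96 in non-mesenchymal mutants (SD, n = 4 each). The difference was -0.62 (SE 0.19, limma adjusted p = 0.0419, exact permutation p = 0.0571), with the highest mesenchymal library, 209, above the lowest non-mesenchymal, 192. Fos was -0.42 (95% interval -0.90 to 0.06), Fosb 0.10 (-0.40 to 0.59), Fosl2 0.19 (-0.23 to 0.62), Junb -0.50 (-1.25 to 0.26), Jund 0.72 (-0.15 to 1.60) and Egr1 0.05 (-0.49 to 0.59), and none of these 6 passed. Of the 4 calls, Atf3 was kept under all 15 alternatives run, while Jun was lost under 7 of 15 (highest limma adjusted p = 0.107), Ier2 under 4 of 15 and Fosl1 under 2 of 14. The count was 1 without non-mesenchymal mutant 1, and 2 without non-mesenchymal mutant 2, non-mesenchymal mutant 4 or mesenchymal mutant 4. The size for Fosl1 depends on the pseudocount, -3.13 with 0.1 and -0.54 with 5 FPKM added.

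In H19DMD controls, 0 of 10 genes were called by limma, against 22.6% of 16732 genes (10.3% lower and 12.4% higher in mesenchymal cells). Fosl1 and Atf3 had an unadjusted p under 0.05, which is 20% of the 10 genes, against 34.2% of all genes. Atf3 was 85.2 ± 5.84 FPKM in mesenchymal and 146 ± 39.0 in non-mesenchymal controls (SD, n = 3 each), a log2 difference of -0.73 (SE 0.24, adjusted p = 0.0881). Fosl1 was 0.530 ± 0.293 and 2.26 ± 1.03, a difference of -1.05 (SE 0.37, adjusted p = 0.0977). Fosb was 403 ± 17.7 and 331 ± 28.6, a difference of 0.29 (SE 0.16, adjusted p = 0.255). Fosl1 again reached the minimum only through the non-mesenchymal libraries, and its difference was -1.91 with 0.1 and -0.38 with 5 FPKM added. In Atf3, Fosl1 and Fosb the fractions did not overlap, 3 of 10 genes with Fosb on the higher side, where 39.9% of all genes did not overlap. Exact permutation of 3 against 3 cannot go below p = 0.1. Fos was 0.24 (95% interval -0.23 to 0.72), Jun -0.52 (-1.16 to 0.12), Ier2 -0.62 (-1.72 to 0.48) and Egr1 0.09 (-0.50 to 0.67). Fosl2 was 0.32, Junb -0.09 and Jund 0.08. Without non-mesenchymal control 1, Jun and Atf3 passed (adjusted p = 0.0457 and 0.0142), and with median-ratio scaling Atf3 passed (0.0218). That scaling moved the median difference of all genes from 0.08 to -0.04 and that of the 10 genes from -0.01 to -0.14.

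The fractions differ in cell types, which the markers show. Against non-mesenchymal cells, mesenchymal cells had 12 of 12 tested mesenchymal markers called higher in both comparisons, and all 13 tested acinar markers called lower. Endocrine markers were called lower for 13 of 13 in controls and 12 of 12 in mutants. Ductal markers were called lower for 7 of 10 and 10 of 10. Erythroid markers were called lower for 4 of 6 and 5 of 6, and neural and glial markers for 5 of 6 and 6 of 8. Endothelial markers went the other way, above 0 for 10 of 10 in both comparisons, with 4 called higher in each. Leukocyte markers summed to 365 to 783 FPKM in the non-mesenchymal and 17.8 to 75.0 in the mesenchymal libraries of the H19DMD table. They were called lower for 10 of 12 in controls and 11 of 12 in mutants. Some of these markers averaged under 1 FPKM in the fraction where they are low, and their calls are descriptions, as for Fosl1. In controls 9 of 13 mesenchymal, 10 of 14 acinar, 8 of 14 endocrine and 5 of 12 leukocyte markers reached 1 FPKM there. In mutants these numbers were 9, 10, 7 and 4. Emr1, Fcer1g and C1qa were listed at 0 in all mesenchymal controls, and Tyrobp in all mesenchymal mutants. Housekeeping genes were below 0 for 10 of 10 in controls and 7 of 10 in mutants, with medians of -0.40 and -0.38, and 3 of 10 were called lower in mutants. The part of these in the lower Atf3, Ier2, Jun and Fosl1 was not tested.

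Whether the effect of H19DMD deletion differed between fractions was tested with the interaction term over all 14 libraries of that model. By limma 0 of 10 genes were called, against 0.0117% of 17105 genes. Fos had the lowest unadjusted limma p, 0.0422. Its difference was -0.66 (mesenchymal effect minus non-mesenchymal effect, 95% interval -1.30 to -0.03, limma adjusted p = 0.768). It was the 1 gene of the 10 under 0.05, as were 6.35% of all genes tested. Atf3 was -0.64 (-1.41 to 0.14), Fosb -0.19, Fosl1 -0.40, Fosl2 -0.13, Jun -0.10, Junb -0.40, Egr1 -0.04 and Ier2 -0.37, and Jund alone was above 0 at 0.65. The difference was below 0 for 9 of the 10, with a median of -0.28 against -0.11 over all genes tested. With median-ratio scaling these medians were -0.15 and -0.005, and 6 of the 10 were below 0. The larger number of calls in mutants than in controls is therefore not shown to be a difference between genotypes.

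The 36 other immediate early genes were split between the fractions. In H19DMD controls 4 were called higher and 5 lower in mesenchymal cells, and in mutants 6 higher and 13 lower. In controls this was 11.1% higher and 13.9% lower, against 12.4 and 10.3% of all genes, and in mutants 16.7% higher and 36.1% lower, against 13.5 and 15.1%. Arc, a neuronal activity-regulated gene, was 0.577 ± 0.437 FPKM in mesenchymal and 13.4 ± 8.03 in non-mesenchymal controls, a log2 difference of -3.09 (adjusted p = 0.00518, limma), and -3.01 in mutants (3.44e-05). In controls Arc reached the minimum of 1 FPKM only through the non-mesenchymal libraries. Klf4 and Klf2, Krüppel-like factors, went the other way. Klf4 was 73.5 ± 7.45 FPKM against 11.99 ± 2.51 in controls, a difference of 2.53 (adjusted p = 0.000561, limma), and Klf2 was 2.32 in controls and 2.90 in mutants (0.000618 and 0.00221). Dusp5, a nuclear phosphatase that inactivates ERK, was -2.83 in mutants (adjusted p = 0.000154). None of them (36 tested in non-mesenchymal and 34 in mesenchymal cells) was called by limma in the 3 comparisons of mutants with controls, where 1, 6 and 7 had an unadjusted p under 0.05 in Igf2 non-mesenchymal, H19DMD mesenchymal and H19DMD non-mesenchymal cells. These were 2.78, 17.6 and 19.4% of the list, against 5.28, 4.76 and 5.35% of all genes tested.

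**Figure D5:**
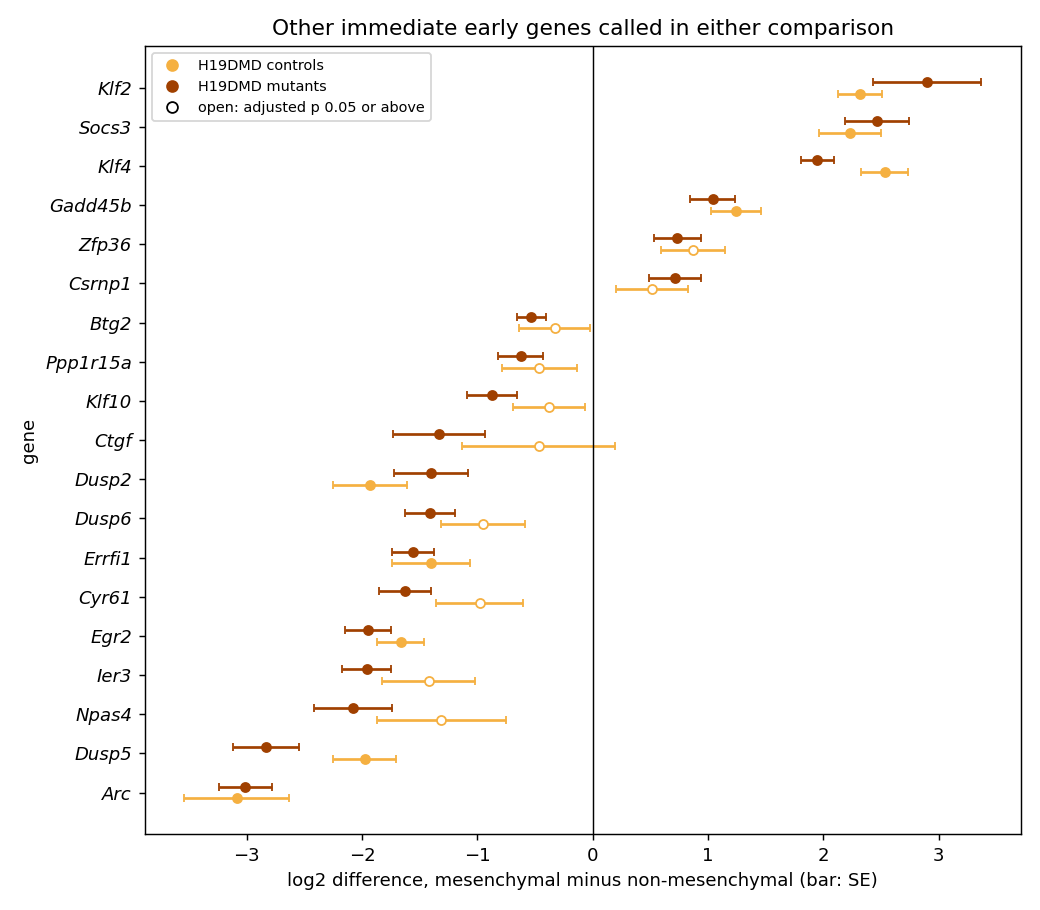
Log2 differences, mesenchymal minus non-mesenchymal cells (x, bars are the SE), of the other immediate early genes (y) called in either H19DMD comparison. Filled points have an adjusted p under 0.05, and the highest is Klf2 at 2.90 and the lowest Arc at -3.09.

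In the other lists of the pathway, calls came from the comparisons of fractions, where 22.6% of all genes were called in controls and 28.6% in mutants. Of the AP-1 partners and related leucine zipper genes, 4 were called higher and 1 lower of 20 in controls, and 4 higher and 3 lower of 19 in mutants (25.0 and 36.8% of the list). Among those called higher were Maf (1.96 in controls and 1.90 in mutants), a leucine zipper factor, and Cebpd (1.86 in controls), a C/EBP factor. Of 24 upstream kinases and factors, 0 were called higher and 2 lower in controls and 0 and 3 in mutants (8.33 and 12.5%), among them Rps6ka1, a kinase downstream of ERK (-2.09 and -2.83), and Mapk3, which encodes ERK1 (-1.18 in mutants). Of the known AP-1 target genes, a list that includes Fosl1, 7 were called higher and 8 lower of 21 in controls. In mutants these were 7 and 11 of 20 (71.4 and 90% of the list). Some genes of the list averaged 1 FPKM or more in only 1 fraction, and any calls of these are descriptions. Areg was 0 in mesenchymal and 7.79 FPKM in non-mesenchymal controls, and Timp1 was 13.5 and 0.712. Spp1, which encodes osteopontin and also marks ducts, was 6.12 ± 2.95 FPKM in mesenchymal and 930 ± 207 in non-mesenchymal controls, and Mmp2, a matrix metalloprotease of mesenchymal cells, 94.3 ± 11.2 and 1.70 ± 0.327. Of 14 heat shock genes tested, 3 were called higher in controls and 2 in mutants (21.4 and 14.3%) and 0 lower in either, with Bag3, a co-chaperone, at 1.54 and 0.97. None of these lists had a called gene in the comparisons of mutants with controls or in the interaction.

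The genes most like the mean profile of the 10 were found over the 21 libraries by Pearson's r of log2(FPKM + 1) with group means subtracted, among 5525 protein-coding genes that averaged 10 FPKM or more in both tables. They were Zfp36 (r = 0.93), which encodes an mRNA decay factor, Nr4a1 (0.87), a nuclear receptor, Slc25a25 (0.86), a mitochondrial carrier, Csrnp1 (0.86), a nuclear protein, and Per1 (0.84), a clock gene. Zfp36 was 486 to 1417 FPKM over the libraries and Nr4a1 65.5 to 217. Of the other immediate early genes among the 5525, 20 of 29 had an r above 0.5, with a median of 0.61, against 4.89% of all genes and a median of 0.07. Heat shock genes had 1 of 11 above 0.5, and housekeeping genes 0 of 10. The points share library depth and normalisation, so these values are descriptions.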

How the data were processed

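Per the labels' protocols, the RNA of sorted cells (RNeasy Micro) was amplified by Ovation RNA-seq V2 before library preparation, and single reads were sequenced on a HiSeq instrument. The submitters' processing notes name TopHat2 2.0.8, Cufflinks 2.2.1 and GRCm38. The authors deposited FPKM values per gene, 1 table per model, per the file headers, and strand use, annotation and scaling between libraries are not given in the sources used here. The 10 genes, the other gene lists and the tests were chosen with earlier results of these data known. Each column was given to the sample whose label holds its name. Each comparison was fitted with limma 3.58.1 in R 4.3.3 (lmFit, eBayes with trend) on log2(FPKM + 1), within a table, with genes of a mean of at least 1 FPKM, two-sided, Benjamini-Hochberg over all genes tested and a threshold of 0.05. The pseudocount makes changes of low genes look smaller. The fit was tested on simulated data. Exact two-sided permutation tests over libraries stand beside it, and correlations used 100000 permutations of the group-centred values of all 21 libraries, exchanged only within a group. Named genes were all 10 members, at most 3 called genes with the largest change per other list and comparison, and the 5 genes most like the members' mean. The 4 leukocyte markers listed at 0 are named outside this rule, after their values were seen. The values of 1 gene named by this rule are not reported here. Alternatives were other pseudocounts, filters, median-ratio scaling, the replicate number as a block, leaving out each library, and protein-coding genes only, the last added after seeing the data. Promoters were read from RefSeq on GRCm38.p6 for 7 of the 10 genes. Without a known depth, no interval for counting error could be computed.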

Additional observations from a re-analysis of the deposited data

Results flagged for a closer look

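Jund in mesenchymal H19DMD mutant 3 stood far below the other libraries of its group, at 13.8 FPKM where the other 3 were 24.3 to 26.4. The gap to its neighbour was 0.838 of the range of the group. This was the only such value among 30 sets of 4 libraries (10 genes in 3 groups). Chance gives about 1 in 20 sets, so 1 among 30 is no more than chance gives. The genes are correlated across libraries, so the sets are not independent. The same library was the lowest of its group for 8 of the 10 genes and had a median-ratio factor of 0.915.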

How the results depend on the processing

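Of 59 pairs of gene and comparison, 37 kept their sign under every alternative run, and no pair that changed sign passed the threshold under that alternative. In the comparison of mesenchymal with non-mesenchymal mutants, 1 to 4 genes were called when 1 library was left out, and in controls 0 to 2, with 1 under median-ratio scaling (Atf3) and 1 among protein-coding genes only (Fosl1, other genes tested). Over all genes, the 11 calls in each comparison of mutants with controls became 0 in Igf2 non-mesenchymal, 0 in H19DMD mesenchymal and 1 in H19DMD non-mesenchymal cells with protein-coding genes only. With a minimum mean of 5 FPKM, which leaves fewer genes and in which Fosl1 could not be tested, the counts between fractions were 2448 in controls and 3148 in mutants, against 3785 and 4802.

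Leaving out 1 library moved log2 differences across 0 as follows. For the Igf2 deletion the ranges were -0.33 to 0.042 for Fos, -0.71 to 0.077 for Fosl1, -0.12 to 0.45 for Fosl2, -0.23 to 0.014 for Jun, -0.053 to 0.38 for Junb, -0.36 to 0.12 for Jund and -0.12 to 0.16 for Egr1. For the H19DMD deletion in mesenchymal cells they were -0.028 to 0.20 for Jun, -0.38 to 0.054 for Junb, -0.080 to 0.41 for Jund, -0.047 to 0.27 for Egr1 and -0.43 to 0.23 for Ier2, and in non-mesenchymal cells -0.046 to 0.35 for Jun and -0.074 to 0.26 for Egr1. Between fractions they were -0.26 to 0.12 for Junb, -0.12 to 0.36 for Jund and -0.11 to 0.22 for Egr1 in controls, and -0.05 to 0.22 for Fosb and -0.087 to 0.23 for Egr1 in mutants. For the interaction they were -0.34 to 0.077 for Fosl2, -0.25 to 0.14 for Jun and -0.17 to 0.16 for Egr1. Median-ratio scaling turned Ier2 to 0.040 for the H19DMD deletion in mesenchymal cells, Jund to -0.057 and Egr1 to -0.055 between fractions in controls, and Fosl2 to 0.0039, Jun to 0.031 and Egr1 to 0.10 in the interaction. For all of these the cause was not tested.

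Deviations of libraries with the same replicate number had r from -0.051 to 0.068, none over 0.1, so the numbers were not taken to pair libraries. Between fractions these r were above 0 for every shared number, 0.017 to 0.068 in controls and 0.0076 to 0.042 in mutants, where other pairs had -0.052 to 0.032. Whether the fractions share animals is not given in the labels. With the replicate block, 3 genes were called between fractions in mutants, with Jun at adjusted p = 0.0533 by limma, and 0 in the other comparisons. Over all genes the replicate block left 2 calls for the Igf2 deletion, and 7 and 5 for the H19DMD deletion in mesenchymal and non-mesenchymal cells. The replicate block turned Jun to 0.014 and Jund to 0.082 for the Igf2 deletion and Ier2 to 0.014 for the H19DMD deletion in mesenchymal cells. The correlations of Fos passed for 4 genes with median-ratio scaling, with Fosb at r = 0.68 against 0.70, and for 6 with a pseudocount of 0.1, with Junb at r = 0.55 under both settings. The unknown depth limits what can be said of Fosl1, the lowest of the 10 genes.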
